A study of Drosophila melanogaster with 8 samples.

Results

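The brown eye pigments of Drosophila and the transporters that load pigment granules were followed in RNA from adult fly heads, through 7 genes taken by FlyBase symbol from a fixed list: vermilion (v), cinnabar (cn), cardinal (cd), scarlet (st), white (w), brown (bw) and karmoisin (kar). The symbols were matched to the gene identifiers of the count tables, and 5 of the 7 (v, cd, st, bw and kar) had a count, out of 10669 genes in all. These 5 genes were read through 12 of the 20177 transcript 3′ ends counted. For cn and w no value is given, and both were not analysed here. The rule that lists the genes is not based on a measured value, but the list was chosen with earlier results of these data known.

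Ommochromes are the brown pigments of the insect eye and are made from tryptophan by way of kynurenine and 3-hydroxykynurenine. The red pigments, called drosopterins, are pteridines made from GTP. Both kinds are stored in pigment granules, lysosome-related organelles of the pigment cells that screen the photoreceptors from stray light, and ABC transporters of the White family load the precursors into these granules. The White protein pairs with Scarlet for ommochrome precursors and with Brown for pteridine precursors, so that loss of w gives a white eye.

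The libraries compared a synaptosome fraction, that is pinched-off and resealed nerve endings collected from a Percoll density gradient, with the head homogenate it was prepared from, called input. Each group held 4 libraries of pooled 3-day-old flies of both sexes. All 8 libraries came from the same genetic background, which the labels give as wt and the study's methods name as w1118, a white-eyed stock that carries a partial deletion of w, and no transgene or treatment separated the groups. Of each fraction, 3 libraries carry a number in the deposited counts (1 to 3) and the remaining one carries the word old, whose meaning is not stated.

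QuantSeq REV reads start at the polyadenylated end of a transcript, so that 1 read stood for 1 transcript end and counts were not divided by gene length. Total counts ran from 1029666 to 9397652 in the synaptosome libraries and from 7940909 to 16865581 in the input libraries, so that 3 counts corresponded to between 0.352 and 2.63 CPM (counts scaled to a common library size) in a synaptosome library and to between 0.217 and 0.337 in an input library. The number of genes with a count was 5509 to 7568 per synaptosome library and 8760 to 9587 per input library. Of the 8159 genes with enough counts to test, 77 were called higher in synaptosomes (0.944%) and 337 lower (4.13%) at an adjusted p under 0.05 in edgeR's quasi-likelihood test. The median gene had a log2 fold change of -0.35, which is the level against which the fold changes below can be read. The study's methods speak of biological replicates for the protein measurements on synaptosomes, which were made from preparations divided between RNA and protein, but do not say which of these RNA libraries came from separate preparations. The p-values therefore measure only the spread between these libraries, part of which may be technical. In bulk RNA, fewer cells of a type and less RNA per cell cannot be told apart.

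Of the members, v, st and bw had higher mean levels in synaptosomes than in input and kar had a slightly lower one, and none of these 4 tested genes passed the adjusted threshold in edgeR. In edgeR 0 of 4 were called in either direction, against the 0.944% of all tested genes called higher and 4.13% called lower. At an unadjusted p under 0.05, 3 of the 4 (v, st and bw) were higher and 0 were lower, where 4.44% of all tested genes were higher and 9.85% lower. DESeq2 gave no p-value for v and called 2 of the 4 higher (st and bw). Over the 7865 genes to which it gave an adjusted p, it called 2.87% higher and 5.4% lower. The median log2 fold change of the 4 tested members in edgeR was 1.49, beside -0.35 over all genes tested. The members that could not be tested were cd, which had too few counts, and cn and w.

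**Figure D1:**
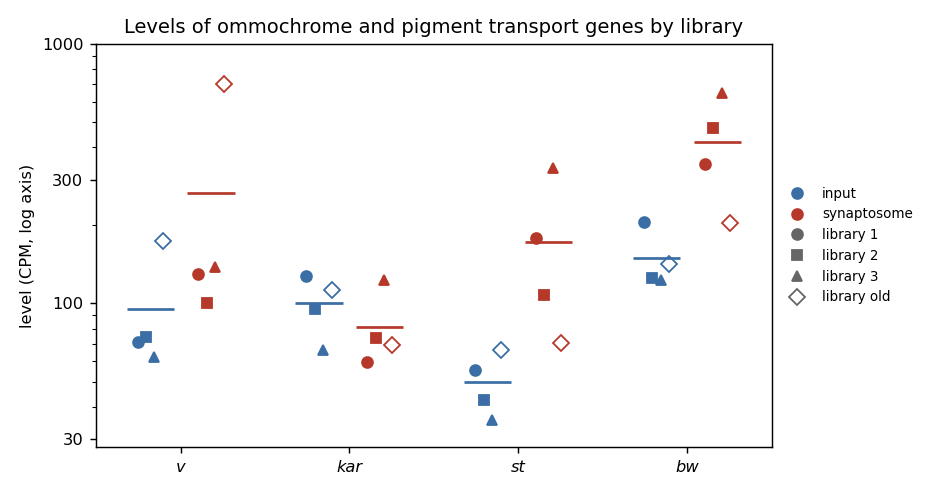
Normalised level of v, kar, st and bw in each library, in CPM with TMM scaling on a log axis, with blue points for input, red points for synaptosomes, 1 symbol per library number and open diamonds for the libraries named old, and lines at the mean of 4 libraries per fraction. All st points from synaptosomes (70.7 to 334 CPM) lie above all input points (35.6 to 66.2 CPM), whereas v is highest in the library named old of each fraction.

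The enzymes of ommochrome synthesis came first in the pathway and differed in how well they were measured. Vermilion (FBgn0003965; dm6 chromosome X, 10923972 to 10925631, plus strand) encodes tryptophan 2,3-dioxygenase, which opens the indole ring of tryptophan in the first step and is known for its activity in fat body as well as in the eye. The v level was 129, 101, 138 and 699.6 CPM in synaptosome libraries 1, 2, 3 and old, and 71.0, 74.3, 62.1 and 174 CPM in input libraries 1, 2, 3 and old. The library named old stood highest in both fractions, and the groups overlapped because input old exceeded the 3 numbered synaptosome libraries. The means were 267 ± 289 CPM in synaptosomes and 95.3 ± 52.6 CPM in input (SD, n = 4 each), with a log2 fold change of 1.49 ± 0.655 (SE) and an adjusted p of 0.318 in edgeR.

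The size of the difference for v, but not its direction, depended on the libraries named old. Within the numbered libraries the mean v level was 1.78-fold higher in synaptosomes (123 against 69.1 CPM), and between the libraries named old it was 4.03-fold higher. Without synaptosome old, but with input old kept, the log2 fold change of v was 0.36. Without both libraries named old it was 0.83 (edgeR adjusted p = 0.232). With a term for these libraries it was 1.12 (edgeR adjusted p = 0.101). A contrast of the libraries named old with the numbered ones, with the fraction as a covariate, gave v a log2 difference of 1.98 ± 0.37 (SE, edgeR adjusted p = 0.105), and 0.0858% of all tested genes were called in this contrast, which was chosen after the data were seen. Summed levels of 7 fat body genes were also highest in the libraries named old. They were 14300 CPM in synaptosome old against at most 1315 CPM in the numbered synaptosome libraries, and 15860 CPM in input old against 3383 to 3614 CPM in the numbered inputs. Unlike v, the sum was lower in synaptosomes than in input. It was carried mostly by the yolk protein genes Yp1, Yp2 and Yp3. Not every gene of the list was highest in both libraries named old: to was at 174 CPM in input old and 103 to 191 CPM in the numbered inputs. In synaptosomes to was highest in the library named old, at 369 CPM against 92.0 to 195 CPM in the numbered libraries. The part of these fat body genes in the v level was not tested.

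Cardinal (FBgn0263986; 3R, 22694959 to 22697990, plus strand), a haem peroxidase that acts at the late step from 3-hydroxykynurenine to the pigment xanthommatin, was close to the limit of detection. It had 0, 0, 0 and 37 counts in synaptosome libraries 1, 2, 3 and old, and 2, 0, 21 and 10 counts in input libraries 1, 2, 3 and old. The counts of 0 in synaptosome libraries 1, 2 and 3 allowed levels of up to 0.700, 2.63 and 2.12 CPM, so that a difference from input, where the highest level was 1.58 CPM, was not detectable in libraries 2 and 3 at this depth. The highest level of all was 4.34 CPM in synaptosome old. The gene did not pass the filter on low counts and was not tested. Cinnabar (FBgn0000337; 2R, 7782797 to 7785067, minus strand) encodes kynurenine 3-monooxygenase, which makes 3-hydroxykynurenine between the steps of v and cd.

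The ABC transporters with counts, st and bw, both had higher means in synaptosomes. Scarlet (FBgn0003515; 3L, 16497651 to 16500460, plus strand) is the partner of White for ommochrome precursors. The st level was 179, 108, 334 and 70.7 CPM in synaptosome libraries 1, 2, 3 and old, and 55.2, 42.6, 35.6 and 66.2 CPM in input libraries 1, 2, 3 and old. Every synaptosome library lay above every input library, which held for 2.99% of all tested genes, but synaptosome old and input old were close together. The means were 173 ± 116 and 49.9 ± 13.6 CPM (SD, n = 4 each), and the log2 fold change was 1.79 ± 0.52 (SE, edgeR adjusted p = 0.0773).

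Brown (FBgn0000241; 2R, 23527805 to 23538499, minus strand) is the partner of White for pteridine precursors, and so serves the red and not the brown pigments. Its level was 345, 476, 646 and 205 CPM in synaptosome libraries 1, 2, 3 and old, and 207, 125, 123 and 142 CPM in input libraries 1, 2, 3 and old. The groups met at 1 point only, where synaptosome old was just under input 1. The means were 418 ± 188 and 149 ± 39.3 CPM (SD, n = 4 each), with a log2 fold change of 1.49 ± 0.425 (SE, edgeR adjusted p = 0.0721).

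For both transporters the gap to input was wide in the numbered libraries and narrow in the pair named old. The mean of st in the numbered libraries was 4.65-fold higher in synaptosomes (207 against 44.4 CPM), and that of bw was 3.22-fold higher (489 against 152 CPM). In the pair named old the ratios were 1.07 for st and 1.45 for bw. Whether the fraction difference itself differed between numbered and old libraries was not tested. Without both libraries named old, st and bw were each called higher in edgeR, with log2 fold changes of 2.22 and 1.69 and an adjusted p of 0.0491 for each. In that fit 139 genes in all were called higher. Without synaptosome old alone the log2 fold changes of st and bw were 2.05 and 1.71, with an adjusted p of 0.0361 for each. There 182 genes in all were called higher. DESeq2 on all 8 libraries also called both, with an adjusted p of 0.0134 for st and 0.0122 for bw. Neither was called in edgeR with a term for the libraries named old (adjusted p = 0.102 for st and 0.059 for bw). The same held in edgeR after thinning to the smallest library (adjusted p = 0.0881 for each) and without a filter on low counts (0.112 and 0.109).

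The white gene itself (FBgn0003996; X, 2790599 to 2796466, minus strand) encodes the partner that Scarlet and Brown share. The deposited list of known 3′ ends held 5 ends assigned to w, all of them outside the span the annotation gives the gene.

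Karmoisin (FBgn0001296; 3R, 12682186 to 12689367, minus strand), a member of the monocarboxylate transporter family whose mutants lack normal brown pigment, did not follow the ABC transporters. Its level was 59.5, 73.6, 123.5 and 69.2 CPM in synaptosome libraries 1, 2, 3 and old, and 127, 95.4, 66.4 and 113 CPM in input libraries 1, 2, 3 and old. The groups overlapped widely, with synaptosome 3 above 3 of the inputs and input 3 below 3 of the synaptosome libraries. The means were 81.4 ± 28.7 and 100.5 ± 26.2 CPM (SD, n = 4 each), and the log2 fold change was -0.31 ± 0.43 (SE, edgeR adjusted p = 0.866), close to the -0.35 of the median gene.

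Ratios of 2 members within a library do not depend on how libraries are scaled. The level of kar per level of bw was 0.172, 0.155, 0.191 and 0.337 in synaptosome libraries 1, 2, 3 and old, and 0.617, 0.763, 0.54 and 0.796 in the corresponding inputs. The groups did not overlap, and synaptosome old was again the nearest to input. The level of kar per level of st did not overlap either, at 0.332 to 0.978 in synaptosomes and 1.7 to 2.31 in input. By contrast st per bw ran from 0.227 to 0.519 in synaptosomes and from 0.267 to 0.467 in input, so that the proportions of these transporters overlapped between the fractions. Those of v per bw overlapped too, at 0.212 to 3.41 and 0.344 to 1.23. The ratios use the same counts as the fold changes above and are no separate evidence. How often the ratio of any 2 genes does not overlap between the fractions was not measured.

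**Figure D2:**
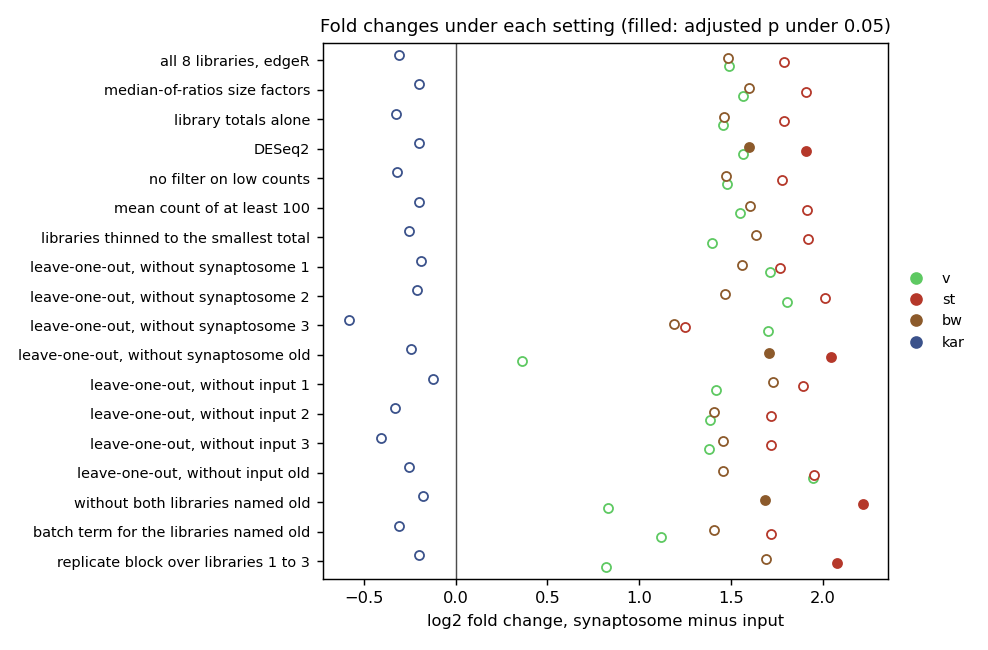
Log2 fold change, synaptosome minus input, of v, st, bw and kar under the main edgeR fit and under each alternative setting, with filled points for settings in which the gene was called at an adjusted p under 0.05. The values of st (1.25 to 2.22) and bw (1.19 to 1.73) stay above 0 in every setting run, those of kar stay below 0 (-0.58 to -0.13), and v falls to 0.36 without synaptosome old.

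Counts at single 3′ ends showed which ends carried these gene totals. The ends are numbered within each gene in the count tables and are not tied to coordinates there. Of the 12 ends, 8 had enough counts to test: bw ends 1, 2 and 7, kar ends 0 and 2, st ends 0 and 1, and v end 0. In edgeR 0 of the 8 were called, against 0.732% of all 11062 tested ends called higher and 6.46% called lower. At an unadjusted p under 0.05, 2 of the 8 were higher and 0 lower, where 2.6% of all tested ends were higher and 11.8% lower. DESeq2 gave no p-value for v end 0 and kar end 0 and called 2 of the 8 higher. Over the 10585 ends to which it gave an adjusted p, it called 2.18% higher and 7.08% lower.

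The 2 ends called by DESeq2 were the same 2 with an unadjusted p under 0.05 in edgeR, and both belonged to bw. The level of bw end 1 was 76.3, 73.6, 67.1 and 46.7 CPM in synaptosome libraries 1, 2, 3 and old and 8.65, 17.8, 10.9 and 18.4 CPM in the corresponding inputs. Its lowest synaptosome library was above its highest input library, and the log2 fold change was 2.09 ± 0.61 (SE, edgeR adjusted p = 0.067). The level of bw end 2, the most abundant of the gene on average in synaptosomes, was 173, 187.5, 252 and 115.1 CPM in synaptosomes and 73.6, 60.0, 43.9 and 61.7 CPM in the inputs. These groups did not overlap either, as for 2.72% of all tested ends, and the log2 fold change was 1.45 ± 0.41 (SE, edgeR adjusted p = 0.0576). Scaling by median-of-ratios size factors brought both under the threshold, with adjusted p of 0.0396 and 0.0393 in edgeR. The level of bw end 7 was 95.9, 214, 324 and 43.1 CPM in synaptosomes and 123, 47.1, 67.6 and 61.5 CPM in the inputs, which overlapped (log2 fold change 1.01 ± 0.60, SE, edgeR adjusted p = 0.527). It was low in synaptosome old, the library in which the bw total met the input range, and the remaining bw end stayed at or under 2.82 CPM.

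The share of a gene's counts at each end was tested against the gene as a whole with edgeR's diffSpliceDGE. In this test 0 of 5240 ends were called (0%), and 384 had an unadjusted p under 0.05. Among the 7 member ends it covered, 0 had an unadjusted p under 0.05. Values of single libraries nevertheless stood far apart for kar and st.

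**Figure D3:**
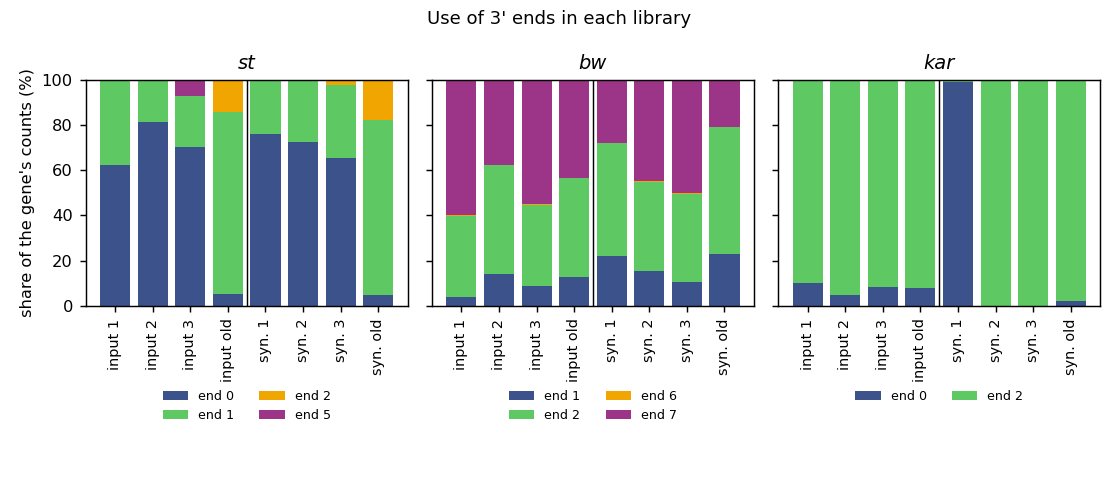
Share of each gene's counts at each of its 3′ ends, in percent, as stacked bars from 0 to 100 for every library of st, bw and kar. The st end 0 segment shrinks to about 5% in both libraries named old, and kar end 0 fills 98.8% of synaptosome 1 alone.

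In st, end 0 held 76.1%, 72.4% and 65.5% of counts in synaptosome libraries 1 to 3 and 62.1%, 81.5% and 70.3% in input libraries 1 to 3. In the libraries named old it held 4.98% (95% exact Clopper-Pearson interval 3.38 to 7.03%) in synaptosomes and 5.35% (3.98 to 7.01%) in input. The old pair thus lay far under all 6 numbered libraries, while synaptosome and input of that pair had overlapping intervals. In that pair end 1 held 77.3% and 80.2%, against 18.5 to 37.9% in the numbered libraries. End 2 held 17.7% and 14.4% there, and in the numbered libraries it was seen only in synaptosome 3, at 2.54%. Its absence from synaptosome libraries 1 and 2 allowed shares of up to 0.391% and 2.44%, and its absence from the numbered inputs allowed up to 0.761%. A last end of st, end 5, held 6.96% of counts in input 3 and no counts elsewhere.

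This st pattern followed the pair of libraries and not the fraction. Of 4961 ends in the 1545 genes with at least 30 counts in every library and at least 2 ends, st end 0 was the only one whose share was at least 50 points lower in both libraries named old than in every numbered library (0.0202%), with a gap of 56.8 points. The 50-point limit was set after the shares were seen. In the diffSpliceDGE contrast of old with numbered libraries, st end 0 changed by -3.52 ± 1.01 relative to the gene on the log2 scale (SE, edgeR adjusted p = 1), and 0.0191% of ends were called. In absolute level, st end 0 was 3.52 CPM in synaptosome old and 3.54 CPM in input old, against 78.0 to 219 CPM in the numbered synaptosome libraries and 25.0 to 34.7 CPM in the numbered inputs. The level of st end 1 was 42.7, 29.8, 107 and 54.6 CPM in synaptosomes and 20.9, 7.89, 8.11 and 53.1 CPM in the inputs, so that it was the end that carried st in the old pair. The gene totals of st therefore rested on different counted ends in the numbered and the old libraries. The deposited list of known 3′ ends held 2 ends for st, beside 4 counted ones. How far apart the counted ends lie is not given, and whether they are separate polyadenylation sites was not tested.

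In kar, end 0 held 98.8% of counts in synaptosome 1 (252 of 255 counts, interval 96.6 to 99.8%). It held 0 of 84 counts in synaptosome 2 and 0 of 175 in synaptosome 3. Taken as 3 counts of the total, the limit used here for every share of 0, these allow shares of up to 3.57% and 1.71%, and the upper bounds of the exact intervals are 4.30% and 2.09%. It held 2.37% in synaptosome old and 4.98 to 9.97% in the inputs. Synaptosome 1 alone was built on end 0, whereas every other library was built on end 2. Such a gap, 50 points or more above every other library, was found at 27 of the 4961 ends for synaptosome 1 (0.544%), at 21 for synaptosome 2 (0.423%), 15 for synaptosome 3 (0.302%) and 6 for synaptosome old (0.121%), and at 0 ends for every input library. These intervals cover counting error only.

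In bw no library stood apart. End 2 held 39.0 to 56.2% of counts in synaptosomes and 35.6 to 47.9% in input, end 7 held 21.0 to 50.2% and 37.7 to 59.6%, and end 1 held 10.4 to 22.8% and 4.19 to 14.3%. All 3 ranges overlapped between the fractions. The change relative to the gene was 0.76 ± 0.75 for end 1, 0.13 ± 0.58 for end 2 and -0.32 ± 0.58 for end 7 on the log2 scale (SE, edgeR adjusted p = 1 for each).

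Other genes of eye colour were read from the same fit. The list of enzymes that branch from kynurenine held 2 genes, of which Kyat, a kynurenine aminotransferase, was tested, with a log2 fold change of 0.04 ± 0.45 (SE, edgeR adjusted p = 0.988). Of 9 pteridine pigment enzymes tested, 3 rose in synaptosomes and 0 fell in the edgeR fit of all 8 libraries, where 0.944% of all tested genes rose and 4.13% fell. The median of the 9 was 0.59, beside -0.35 over all tested genes. The 3 that rose were pr, the tetrahydropterin synthase purple, Pu, the GTP cyclohydrolase that opens the pathway, and se, which encodes a synthase of the drosopterin branch. Their log2 fold changes were 3.08 ± 0.55 for pr, 2.69 ± 0.55 for Pu and 2.85 ± 0.64 for se (SE, edgeR adjusted p = 0.0277, 0.0474 and 0.049).

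Like st and bw, these genes were nearest to input in the library named old. The level of pr was 1816, 1547, 1334 and 248 CPM in synaptosome libraries 1, 2, 3 and old, against 118 to 166 CPM in input. That of se was 9003, 4328, 7427 and 591 CPM against 628 to 857 CPM, so that its synaptosome old library was under every input. Summed over the list, the level was 10000 to 13040 CPM in the numbered synaptosome libraries, 3058 CPM in synaptosome old and 1683 to 2454 CPM in input. When each of the 8 libraries was left out in turn, pr, Pu and se were each called in 1 of the 8 fits, the one without synaptosome old. With a term for the libraries named old, which deviated from their group means together (r = 0.305 across genes, which are not independent replicates), Pu and se were no longer called (edgeR adjusted p = 0.0548 and 0.0581) and pr was (adjusted p = 0.0322).

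**Figure D4:**
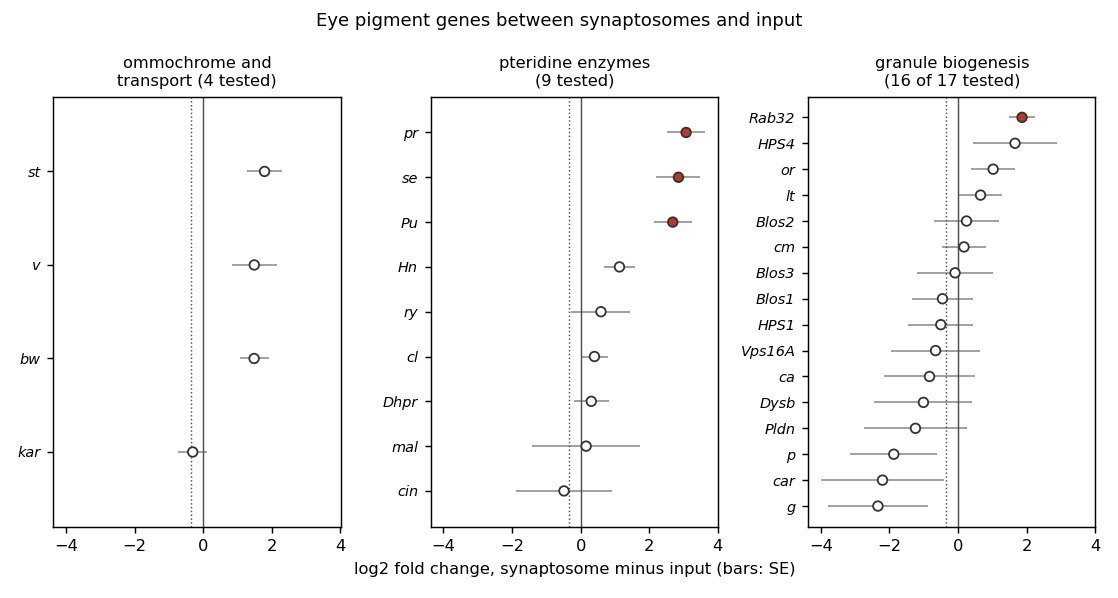
Log2 fold change, synaptosome minus input, with SE, of the tested members, the pteridine pigment enzymes and the granule biogenesis genes, 1 panel each, with the dotted line at the median of all tested genes (-0.35) and filled points for genes called at an adjusted p under 0.05. The called genes are pr, Pu, se and Rab32, and dor, which had no count in synaptosomes, is left out of its panel.

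Of 17 tested genes of granule biogenesis, which encode the AP-3, HOPS and BLOC complexes and Rab32, 1 rose and 1 fell, with a median of -0.5, where 0.944% of all tested genes rose and 4.13% fell, so that a single fall among 17 is near the share over all genes. The gene that rose was Rab32, the small GTPase encoded by lightoid, which acts in building pigment granules. Its level was 1585, 1390, 1066 and 583 CPM in synaptosome libraries 1, 2, 3 and old and 396, 248, 317 and 308 CPM in the corresponding inputs, with no overlap (log2 fold change 1.87 ± 0.39, SE, edgeR adjusted p = 0.049). The gene that fell was dor, the HOPS subunit deep orange, which had 0 counts in every synaptosome library and a mean of 21.7 CPM in input. Against a floor of 3 counts per library, dor was at least 14.9-fold lower (edgeR adjusted p = 0.049). Both calls were kept in 1 of the 8 fits that left out a library, the one without synaptosome old. The call of dor was also lost with a term for the libraries named old, without both of them, after thinning and with the replicate block (edgeR adjusted p = 0.0548, 0.0504, 0.0538 and 0.259), and that of Rab32 was not. Of 10 tested ABC-G transporters other than the members, 0 rose and 0 fell in edgeR or in DESeq2, 1 had an unadjusted p under 0.05 (higher), and their fold changes ran from -1.33 (E23) to 1.13 (CG17646) on the log2 scale with a median of 0.5.

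Marker genes of the cells a head fraction can hold gave the setting of these values. The retinal pigment cell marker Pdh, a retinol dehydrogenase, was at 7028, 2894, 4502 and 1874 CPM in synaptosome libraries 1, 2, 3 and old and at 6085, 5226, 5474 and 4273 CPM in the inputs. It overlapped between the fractions and its log2 fold change was -0.37 ± 0.41 (SE, edgeR adjusted p = 0.814), near that of the median gene and unlike those of st and bw. Of 9 photoreceptor markers 4 fell and 0 rose, where 4.13% of all tested genes fell and 0.944% rose. Those that fell were ninaE, trp, ninaC and trpl, with log2 fold changes of -4.22, -2.96, -2.62 and -2.22 (edgeR adjusted p = 0.00174, 0.0114, 0.049 and 0.0231). The highest of the 9 fold changes was that of Arr2, at 0.28 (edgeR adjusted p = 0.908), the most abundant marker on the list. The summed level of all 9 overlapped between the fractions, at 21440 to 108400 CPM in synaptosomes and 52950 to 70230 CPM in input. Of 5 neuronal markers 0 were called in edgeR or DESeq2 and 0 had an unadjusted p under 0.05, and their summed level was 66.0 to 229 CPM in synaptosomes and 134 to 497 CPM in input. Of 7 glial and 7 fat body markers 0 were called in edgeR or DESeq2 (1 glial and 0 fat body markers had an unadjusted p under 0.05), and of 6 muscle markers 2 fell (up and Mlc2, log2 fold changes -3.72 and -2.45, edgeR adjusted p = 0.0325 and 0.049). Unlike the pigment gene calls, the marker calls were not followed in the fits that left out 1 library. In those fits the number of genes called lower ran from 1 to 984.

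Some cuticle and epidermis markers had higher levels in synaptosomes, as st and bw did, and others on the same list had lower ones. Of 5 tested, 2 rose and 0 fell, where 0.944% of all tested genes rose and 4.13% fell. The 2 were Cpr62Bc and Acp65Aa, both genes of cuticle proteins, with log2 fold changes of 3.57 and 3.41 (edgeR adjusted p = 0.049 and 0.0253). These 2 calls were not followed in the fits that left out 1 library either. The lowest of the 5 fold changes was that of Cpr64Ad, at -3.51 and not called. It had 0, 0, 0 and 16 counts in synaptosome libraries 1, 2, 3 and old, near the limit of detection. The 2 genes of the list not tested, Cpr65Ec and resilin, had 0 counts in every synaptosome library and low levels in input. The summed level of all 7, carried mostly by Acp65Aa, Cpr62Bc and Cpr62Bb, was 206 to 551 CPM in synaptosomes and 54.4 to 99.3 CPM in input, and every synaptosome library was above every input library. The part of epidermal RNA in the levels of st and bw was not tested.

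The genes whose level ran most like each member were named by Pearson's r of log2 CPM over the same 8 libraries, among 5561 genes, as a description only. For v they were CG14400 (r = 0.973) and wal (r = 0.973). For st they were CG13285 (0.969) and snRNA:U2:38ABa (0.945), and for bw they were Cpr62Bc (0.985) and snRNA:U2:38ABa (0.975), so that 1 small nuclear RNA gene was near both ABC transporters. For kar the closest genes were mRpS23 (0.858) and mAChR-B (0.841), at a lower likeness than for the other members. All points share the 8 libraries and their depth.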

How the data were processed

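The authors trimmed reads with fastp, aligned them to dm6 with STAR 2.6.1b, masked internal priming, clustered the read ends and kept clusters near known 3′ ends. They deposited whole-number counts per gene and per 3′ end, and a list of 52971 known 3′ ends with coordinates. Every gene's count equalled the sum of its ends. Deposited DESeq tables of the authors' own comparison (fold changes and p-values) were not used. The labels describe frozen heads and the study's methods fresh ones.

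Counts were tested with edgeR 4.0.16 in R 4.3.3 (filterByExpr, TMM, robust quasi-likelihood F test, 4 against 4 libraries, Benjamini-Hochberg over all tested genes or ends, adjusted p under 0.05). End usage was tested with diffSpliceDGE. Levels are TMM-scaled CPM. Alternatives were DESeq2 1.42.0, other scaling and filters, thinning, left-out libraries, a term for the libraries named old and a replicate block. All 7 members, up to 4 called genes of each other list, and the 2 genes most alike to each member with a mean count of at least 100 are named. The members and lists were chosen with earlier results of these data known. Coordinates are those of the annotation on dm6. Depth is given with the results. The columns named old carry no number and were assigned to their fraction only.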

Additional observations from a re-analysis of the deposited data

Results flagged for a closer look

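In 22 groups of 4 libraries (member levels and end shares in each fraction), 6 had 1 library that stood apart by Dixon's criterion at the 95% level, which chance gives in about 1 group in 20. The v level stood apart in the library named old of both fractions, at 699.6 CPM in synaptosomes and 173.8 CPM in input. In kar, synaptosome 1 stood apart with 98.82% of counts at end 0 and so 1.176% at end 2, which are complementary values of 1 measurement. In st, synaptosome old stood apart with 4.975% at end 0 and 77.28% at end 1, which are again nearly complementary.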

How the results depend on the processing

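Over 19 fold changes and usage values of the members and 279 alternatives, 249 kept their direction and side of the threshold, 19 newly passed it and 11 reversed. The DESeq2 values of v, v end 0 and kar end 0, which had no p-value, were counted as kept by direction alone. Members called higher numbered 0 in the main edgeR fit, 2 with DESeq2, 2 without both libraries named old, 1 with a replicate block over libraries 1 to 3 (st, adjusted p = 0.0458 in edgeR) and 0 to 2 when 1 library was left out. Genes called higher (77) became 226 with DESeq2, 50 without a filter, 139 without both libraries named old and 45 with a term for them. Genes called lower (337) became 50 without a filter, 60 at a mean count of at least 100, 49 after thinning to 1029666 counts, 50 with the term and 124 with the replicate block. Ends called higher (81) became 125 with size factors, 231 with DESeq2, 51 without a filter, 52 after thinning and 145 without both libraries named old. Ends called lower (715) became 110 without a filter, 62 at a mean count of at least 100, 53 after thinning, 1575 without both libraries named old and 248 with the replicate block. With 1 library left out, genes higher ran from 0 to 182, genes lower from 1 to 984, ends higher from 0 to 168, ends lower from 1 to 1956 and usage calls (0) from 0 to 15, with every upper value from the fit without synaptosome old. Usage calls were 2 without both libraries named old. Without synaptosome 1, kar end 0 reversed to -3.58, its change relative to the gene to -3.23 and that of kar end 2 to 0.12. With the replicate block they were -3.30 and -2.94 for kar end 0. The change relative to the gene reversed to -0.14 for st end 0 and 0.33 for st end 1 without input old, to -0.023 and 0.048 without both libraries named old, and to -0.016 and 0.088 with the replicate block. With 1 library left out these values ran from -3.58 to 1.32 for kar end 0, from -3.23 to 1.92 relative to the gene, from -0.39 to 0.12 for kar end 2 relative to the gene, from -0.14 to 0.64 for st end 0 and from -0.72 to 0.33 for st end 1. The causes were not tested. Same-numbered libraries did not deviate together (r = -0.048, -0.022 and -0.113), and no library correlated best with its own number, so the block pairs numbers only. Scaling moved the median gene from -0.35 to -0.26 with size factors and -0.41 with library totals. The smallest library, synaptosome 2, had 84 counts for kar and none for cd, which limits end shares and low genes.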
